A study of Mus musculus with 12 samples.

Results

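A group of 9 genes that sense, take up, move and store sterols was measured in macrophages, cells that load and unload much cholesterol. They were Srebf1, Srebf2, Scap, Insig1 and Insig2, which act in sterol sensing, Mylip, which acts on lipoprotein uptake, and Stard4, Npc1 and Soat1, which act in intracellular sterol transport and storage. The genes were chosen by name for their roles, with earlier results of these data known, out of 43626 genes in the count files. All 9 were found by symbol, all 9 passed the filter on low counts, and the reads per library on any of them ranged from 332 to 12176.

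RNA-Seq was performed on mouse bone marrow-derived macrophages (BMDMs), primary cells grown out of marrow. The 12 libraries fell into 4 conditions of 3. The conditions carry the labels PBS, HMO, LPS and LPS+HMO, where HMO is the human milk oligosaccharide 3′sialyllactose (3′SL), a sialylated form of lactose, and LPS is the bacterial lipopolysaccharide that activates TLR4. Doses and time are not in the labels and come from the study's text. Incubation lasted 6 hours. The LPS concentration was 10 ng/mL, and the oligosaccharide was given at 100 μg/mL. All conditions share the same kind of cell and the PBS vehicle, and no genotype, strain, sex, or age is given for the mice that gave the marrow. The treatment text attached to the libraries describes injected mice, whereas the extraction text describes BMDMs incubated with the agents, and the latter was followed. The study's text calls its RNA-Seq samples biologically independent, but the labels do not tie the libraries to mice or cultures, so p-values measure the spread between these libraries, which may be technical. RNA came from whole cultures, in which fewer cells expressing a gene and less RNA per cell cannot be told apart.

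As background, SREBP transcription factors are made as membrane proteins of the endoplasmic reticulum (ER), where SCAP binds them and senses cholesterol. When ER cholesterol is high, INSIG proteins hold the SCAP-SREBP complex in the ER, and when it is low the complex moves to the Golgi, where proteases release the active factor. SREBP2 drives genes of cholesterol synthesis and lipoprotein uptake, SREBP1 drives those of fatty acid synthesis, and Insig1 and Stard4 are known SREBP targets, while Mylip, Srebf1 and the efflux transporter genes answer to the oxysterol receptor LXR.

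The libraries held 20411741 to 26851890 reads counted on genes. The 8 macrophage markers (Adgre1, Cd68, Csf1r and others) were all detected, with levels given as CPM (reads on the gene per 1000000 reads, with library sizes scaled by TMM). Their sum was 17600 to 20700 CPM in PBS, 19400 to 23900 CPM with 3′SL, 25100 to 28000 CPM in LPS and 23700 to 28300 CPM with both agents, and 5 of the 8 rose with LPS (Adgre1 by 1.34, Itgam by 0.59, Spi1 by 1.26, Mertk by 1.19 and Fcgr1 by 3.31 on the log2 scale). The libraries separated into 3 sets of 4, 1 library of each condition per set, by the correlation of their deviations from the condition means (on average 0.673 within and -0.370 between sets). The sets were found in the data and follow the order of the library labels, which do not describe them. The common coefficient of variation between libraries in edgeR was 0.310 without the sets in the fit and 0.133 with them. The fit over conditions alone, from which the standard errors and intervals below come, keeps the spread between sets in its error. The 6 stromal markers (Col1a1, Col1a2 and others) moved with the sets, and their summed level was 509 to 586 CPM in set 1, 21.6 to 32.9 CPM in set 2 and 50.6 to 85.5 CPM in set 3. Of the 5 that had enough counts to be tested, 0 passed between conditions in the edgeR fit over conditions alone, whereas with the library set as a block Col3a1 (0.63), Dcn (1.24) and Pdgfra (1.33) rose with LPS. The summed ranges of neutrophil and progenitor markers (5.73 to 35.5 CPM), of T, B and NK cell markers (0.138 to 1.07 CPM) and of dendritic markers (0.318 to 1.51 CPM) were low in every library, and the part of any of these markers in the results below was not tested. For the sets, the change inside each set is given beside some of the results. Where 3 levels of a gene are listed, they follow the order of sets 1, 2 and 3.

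Genome positions are from the GENCODE M21 annotation of GRCm38, since the build behind the counts is not given in the sources used here. Each of the 9 is a protein-coding gene. Srebf1 lies at chr11:60199089-60222581 and Srebf2 at chr15:82147181-82205379. Scap lies at chr9:110333288-110384950, Insig1 at chr5:28071363-28078662 and Insig2 at chr1:121304353-121332589. Mylip lies at chr13:45389742-45412022 and Soat1 at chr1:156424525-156474331. Stard4 (chr18:33199355-33213862) and Npc1 (chr18:12189692-12236400) share a chromosome. Exons of Scap overlap the transcript 5830462I19Rik on the other strand over 13.2% of their bases, those of Npc1 overlap other genes over 5.31% and those of Srebf1 over 3.11%. Whether the counting used the strand is not given in the sources used here, so reads in these stretches are uncertain. In Insig1, 2.17% of the 50-base words of its transcripts also occur in Gm37784.

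Levels of different genes were compared as CPM per kilobase of exon. In PBS, Insig1 had the highest level of the 9 genes at 47.4, above Soat1 at 34.3, Npc1 at 31.0 and Srebf2 at 28.1. Stard4 (16.4), Mylip (13.7) and Srebf1 (13.4) formed a middle range, and Insig2 (6.65) and Scap (4.69) had the lowest levels per kilobase. The libraries of Soat1, Npc1 and Srebf2 overlapped with those of their neighbour in this order, as did those of Stard4, Mylip and Srebf1, whereas Insig1, Insig2 and Scap stood apart from theirs. In LPS the order changed, with Srebf2 (32.1) and Insig1 (30.3) overlapping at the top, and Stard4 (6.29) and Insig2 (6.17) overlapping at the bottom. With LPS + 3′SL, Insig1 was again first at 43.4 and did not overlap with Srebf2 at 36.2.

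LPS changed the sterol-sensing and transport genes in both directions. Of the 9 genes, 3 fell (Stard4, Npc1 and Insig1) and 1 rose (Scap) by edgeR's quasi-likelihood test, with an adjusted p threshold of 0.05 and a minimum change of 1.5-fold. Across all 14308 genes tested, 20.2% fell and 18.3% rose by the same rule, so changes with LPS were common. When libraries were scaled by total counts and not by TMM, 7 of the 9 genes passed, all lower, while 46.5% of all genes passed as lower and 10.7% as higher. The median log2 change was -0.49 for the 9 genes and -0.0607 for all genes. The libraries did not overlap for 6 genes that were lower (Srebf1, Insig1, Mylip, Stard4, Npc1 and Soat1) and 1 that was higher (Scap), whereas 31.1% and 27.3% of all genes were separated in these directions. The plot of levels by library shows all 9 genes.

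**Figure D1:**
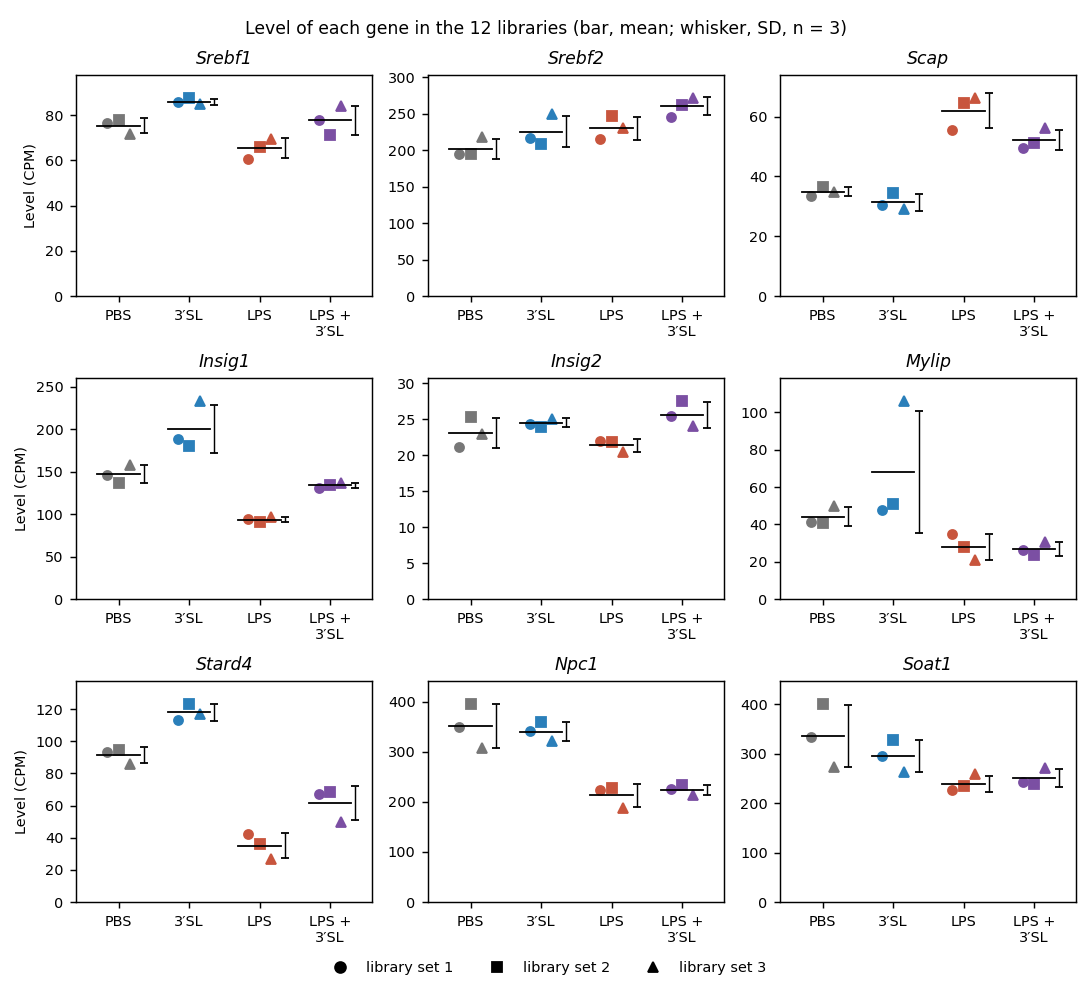
Level of each of the 9 genes in the 12 libraries, as CPM from TMM-scaled library sizes (vertical axis, starting at 0), for the 4 conditions. Points are libraries with a marker shape per library set, bars are means and whiskers are 1 SD (n = 3). The LPS libraries of Stard4 lie between 26.9 and 42.5 CPM and its PBS libraries between 85.9 and 94.7 CPM, and 1 of the 3′SL libraries of Mylip stands alone at 106 CPM.

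Insig1 encodes the retention protein that is itself made in response to SREBP. Its level in PBS was 146, 137 and 158 CPM in sets 1, 2 and 3. In LPS it was 93.8, 90.5 and 96.7 CPM. All LPS libraries lay below all PBS libraries, and Insig1 fell by 0.65 ± 0.11 on the log2 scale (SE; edgeR adjusted p = 5.53e-04, n = 3 per condition). Its relative Insig2, which has the same retention role but is not an SREBP target, was at 21.1 to 25.3 CPM in PBS and 20.4 to 22.0 CPM in LPS. These ranges overlapped, and the Insig2 change of -0.11 had a 95% interval from -0.34 to 0.12. The ratio of Insig1 to Insig2 in reads per exon kilobase, which does not depend on library scaling, was 7.74, 6.07 and 7.75 in PBS and 4.78, 4.65 and 5.33 in LPS, with no overlap.

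Scap encodes the cholesterol sensor and escort of the SREBPs. It was at 33.4, 36.6 and 34.7 CPM in PBS and at 55.4, 64.6 and 66.1 CPM in LPS. All 3 LPS libraries were above all PBS libraries, and Scap rose by 0.83 ± 0.10 on the log2 scale (edgeR adjusted p = 7.21e-05, n = 3 per condition). The ratio of Insig1 to Scap per exon kilobase was 10.1 ± 1.03 in PBS and 3.66 ± 0.368 in LPS (SD, n = 3). The LPS libraries had lower TMM factors (0.700 to 0.876) than the PBS libraries (1.21 to 1.30), and on total counts the median change of all genes was -0.710, the Scap change was 0.17 (adjusted p = 0.242) and the Srebf2 change turned to -0.46 (adjusted p = 0.00301). Both values lay above that median, but setting them against it is itself a scaling to the typical gene and so no separate check.

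The genes of the SREBPs themselves moved less. Srebf2, the gene of SREBP2, was at 194, 194 and 218 CPM in PBS and 215, 247 and 230 CPM in LPS, where the ranges overlapped. Its change of 0.19 (95% interval -0.04 to 0.42) did not pass (edgeR adjusted p = 0.159, n = 3 per condition). Srebf1, which encodes both forms of SREBP1 and was counted here without telling them apart, was at 76.6, 77.7 and 71.6 CPM in PBS and 60.6, 66.0 and 69.4 CPM in LPS. Its LPS libraries were all below its PBS libraries, but the change of -0.21 ± 0.09 did not pass (edgeR adjusted p = 0.0793, n = 3 per condition). Within sets 1, 2 and 3 the Srebf1 change was -0.34, -0.24 and -0.05. The ratio of Srebf2 to Srebf1 per exon kilobase was 1.99, 1.96 and 2.38 in PBS and 2.78, 2.93 and 2.60 in LPS, all higher.

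Promoter sequences of Insig1 and Srebf2 are shown because both act in the SREBP pathway and had the highest levels per kilobase of the 9 genes in LPS, where Insig1 but not Srebf2 passed the test against PBS. They are from a collection of RefSeq promoter windows (GRCm38.p6) and are printed 5′ to 3′ on the plus strand up to the start of the gene. The collection used here held windows for 7 of the 9 genes, so Stard4 and Npc1 were not searched. Capitals mark matches to TCACNCCA, a sterol response element core, to CACGTG, an E-box that SREBPs can also bind, and to CCAAT, the NF-Y site (ATTGG on the other strand). The Insig1 window is chr5:28071162-28071362 and the Srebf2 window is chr15:82147019-82147180.
Insig1: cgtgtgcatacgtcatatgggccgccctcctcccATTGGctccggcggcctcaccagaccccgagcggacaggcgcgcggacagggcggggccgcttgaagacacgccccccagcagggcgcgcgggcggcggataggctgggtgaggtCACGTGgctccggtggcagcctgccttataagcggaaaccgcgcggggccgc
Srebf2: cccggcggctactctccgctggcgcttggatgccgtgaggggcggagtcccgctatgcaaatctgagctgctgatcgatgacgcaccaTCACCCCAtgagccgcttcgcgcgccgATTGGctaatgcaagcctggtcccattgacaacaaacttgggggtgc

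These letters were searched on both strands in windows of 300 bases, from 250 bases before to 50 after a start site, and the motifs were chosen after values were known. The sterol response element letters were present in 4.36% of all 32851 windows, the E-box in 7.15% and CCAAT in 37.4%, and the 3 motifs share no positions in the printed sequences. Srebf2 held the sterol response element letters (TCACCCCA, starting 162 bases before its RefSeq start site) and 1 CCAAT match, and Insig1 held 1 E-box and 1 CCAAT match. The 2 Scap windows overlap and held the same E-box. Mylip held 3 CCAAT matches, 1 of 3 Insig2 windows and 2 of 3 Srebf1 windows held CCAAT, and Soat1 held 1 CCAAT match. A match describes letters and not a bound site.

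Mylip encodes an E3 ligase, also called IDOL, that limits the uptake of lipoproteins. It was at 41.5, 41.0 and 49.9 CPM in PBS and 34.6, 28.1 and 20.8 CPM in LPS, with no overlap. The change of -0.66 ± 0.29 did not pass (edgeR adjusted p = 0.0828, n = 3 per condition). Within sets 1, 2 and 3 it was -0.26, -0.54 and -1.26. With the library set as a block the change was -0.63 and the adjusted p was 0.0495 (edgeR), past the threshold, where 24.0% of all genes fell. Mylip also passed without the set 3 library of 3′SL (edgeR adjusted p = 0.0119), which shares in the estimate of the spread.

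Stard4, whose product carries cholesterol through the cytosol between membranes, showed the largest change of the 9 genes. It was at 93.4, 94.7 and 85.9 CPM in PBS and at 42.5, 35.9 and 26.9 CPM in LPS. All LPS libraries lay below all PBS libraries, and Stard4 fell by 1.38 ± 0.17 on the log2 scale (edgeR adjusted p = 6.46e-05, n = 3 per condition), which left 38.4% of the PBS mean. Npc1 encodes the membrane protein that exports LDL cholesterol from late endosomes and lysosomes. Its levels were 350, 395 and 308 CPM in PBS and 224, 228 and 187 CPM in LPS. These groups were separate, and Npc1 fell by 0.72 ± 0.12 (edgeR adjusted p = 5.66e-04, n = 3 per condition). Soat1, the enzyme that esterifies cholesterol for storage in lipid droplets, was at 334, 400 and 274 CPM in PBS and 227, 234 and 258 CPM in LPS. The groups did not overlap, and the Soat1 change of -0.49 ± 0.14 passed the adjusted p (0.0163, edgeR) but not the 1.5-fold minimum. Within sets 1, 2 and 3 the Soat1 change was -0.56, -0.78 and -0.09. Without the set 3 library of PBS, Soat1 passed both (-0.62, edgeR adjusted p = 0.00444).

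Adding 3′SL to LPS was the comparison the study was about. Stard4 and Insig1 had the largest differences of the 9 genes, both higher when 3′SL was present, yet no gene of the 9 passed both thresholds in the edgeR fit over conditions alone, in which 0% of all 14308 genes passed. The lowest adjusted p of any gene was 0.0835, and 995 genes had an unadjusted p under 0.05, among them 5 of the 9 (Srebf1, Scap, Insig1, Insig2 and Stard4). DESeq2 passed 113 genes and edgeR with the library set as a block 207, among them in each case 1 of the 9, Stard4. The 3′SL libraries had the higher mean for 7 of the 9 genes and the lower for 2, with a median log2 change of 0.17 against -0.00788 for all genes. The libraries did not overlap for 4 higher genes (Srebf1, Insig1, Insig2 and Stard4) and for 0 lower genes, and the shares over all genes were 6.24% and 6.50%.

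Stard4 was at 67.2, 68.5 and 49.6 CPM with LPS + 3′SL, against 42.5, 35.9 and 26.9 CPM with LPS in sets 1, 2 and 3. Within every set it was higher with 3′SL, by 0.66, 0.93 and 0.88 on the log2 scale. The fitted change was 0.81 ± 0.16 (95% interval 0.45 to 1.18, edgeR adjusted p = 0.161, n = 3 per condition). With the library set as a block it was 0.82 and passed (edgeR adjusted p = 0.00622), a rule by which 0.685% of all genes rose, and it passed in DESeq2 without the block (adjusted p = 0.00261), by which 0.328% rose. With the block it did not pass when set 1 (0.91, edgeR adjusted p = 0.106) or set 2 (0.76, adjusted p = 0.261) was left out. In those 2 fits 0.00704% and 0% of all genes passed, in either direction. All LPS + 3′SL libraries remained below all PBS libraries, with a mean at 67.6% of the PBS mean.

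Insig1 was at 131, 134 and 137 CPM with LPS + 3′SL, against 93.8, 90.5 and 96.7 CPM with LPS. The sets differed little, with changes of 0.49, 0.57 and 0.50, and the fitted change was 0.52 ± 0.11 (95% interval 0.28 to 0.75, edgeR adjusted p = 0.164, n = 3 per condition). The adjusted p was 0.00677 with the block in edgeR and 0.0159 in DESeq2, but the change stayed under 1.5-fold. The LPS + 3′SL mean was 91.2% of that in PBS and the libraries overlapped with PBS. The ratio of Insig1 to Scap per exon kilobase was 3.66 ± 0.368 in LPS and 6.19 ± 0.288 in LPS + 3′SL (SD, n = 3).

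The other genes differed less between LPS + 3′SL and LPS. Insig2 was at 25.4, 27.5 and 24.0 CPM against 22.0, 21.8 and 20.4 CPM, a change of 0.26 (95% interval 0.03 to 0.49). Srebf1 differed by 0.25 (0.05 to 0.44) and Srebf2 by 0.17 (-0.06 to 0.40), and each was higher in all 3 sets. Scap was at 49.5, 51.0 and 56.1 CPM against 55.4, 64.6 and 66.1 CPM, overlapping by 1 library, with a change of -0.25 (-0.47 to -0.03). None of these passed the edgeR test (adjusted p from 0.528 for Srebf1 to 0.873 for Srebf2). Npc1 (0.07, interval -0.19 to 0.34) and Soat1 (0.07, interval -0.25 to 0.38) overlapped between the conditions, and these intervals exclude a 1.5-fold change in either direction. Mylip (-0.06) was lower in sets 1 and 2 and higher in set 3, and its interval from -0.70 to 0.58 reaches past 1.5-fold lower.

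**Figure D2:**
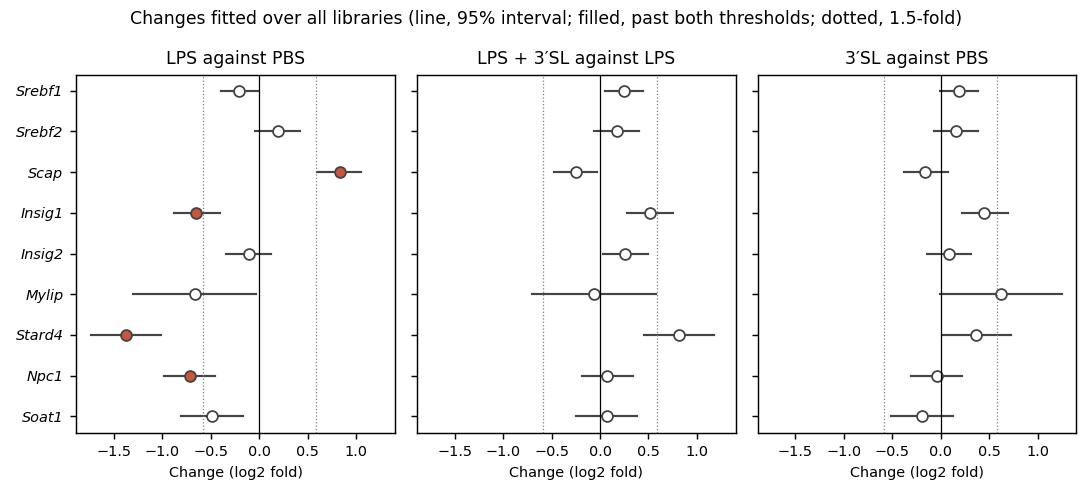
Log2 fold change (horizontal axis) of each gene in LPS against PBS, LPS + 3′SL against LPS and 3′SL against PBS, from the edgeR fit over 12 libraries. Lines are 95% intervals, filled points passed the adjusted p and the 1.5-fold minimum, and dotted lines mark 1.5-fold. Filled points are found for Scap, Insig1, Stard4 and Npc1 in LPS against PBS, and in neither 3′SL comparison.

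Without LPS, 3′SL gave higher levels of Insig1, Stard4 and Srebf1 in each library than in any PBS library, and no gene of the 9 passed the test. By edgeR, 0% of all genes passed, with a lowest adjusted p of 0.167 and 1439 genes at an unadjusted p under 0.05, among them Insig1 and Stard4. DESeq2 passed 88 genes and edgeR with the block 406, with 0 of the 9 in either. Of the 9 genes, 6 were higher and 3 lower, with a median log2 change of 0.16 against 0.00129 for all genes. The 3 higher genes without overlap compare with 9.02% of all genes, and no lower gene was without overlap, compared with 8.53% of all genes. This comparison and that of LPS against PBS share the PBS libraries.

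Insig1 was at 188, 180 and 233 CPM with 3′SL against 146, 137 and 158 CPM in PBS. The change was 0.37, 0.40 and 0.56 in sets 1, 2 and 3, and 0.45 ± 0.11 in the fit (95% interval 0.22 to 0.69, edgeR adjusted p = 0.258, n = 3 per condition). With the block the adjusted p was 0.0125 and the change under 1.5-fold. Stard4 was at 113, 123 and 117 CPM against 93.4, 94.7 and 85.9 CPM, a change of 0.36 ± 0.16 (edgeR adjusted p = 0.493, n = 3 per condition). Srebf1 was at 85.7, 87.4 and 84.7 CPM against 76.6, 77.7 and 71.6 CPM, and its change of 0.19 had an interval from -0.01 to 0.38. For Stard4, the ratio to Npc1 per exon kilobase was 0.531 ± 0.0410 in PBS and 0.701 ± 0.0356 with 3′SL. In LPS it was 0.332 ± 0.0483, and 0.556 ± 0.0722 when 3′SL was added (SD, n = 3).

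Mylip was at 47.7, 50.7 and 106 CPM with 3′SL, against 41.5, 41.0 and 49.9 CPM in PBS. The library of set 3 stood far above the others, and the groups overlapped. The change was 0.20, 0.30 and 1.08 within sets, and the fitted 0.62 ± 0.29 (edgeR adjusted p = 0.509, n = 3 per condition) became 0.12 without that library. The same library had the highest Insig1 level of all 12. With the library set as a block, 1.98% of all genes rose with 3′SL and 0 of the 9. Srebf2 (0.16), Insig2 (0.08), Npc1 (-0.04), Scap (-0.16) and Soat1 (-0.19) overlapped between 3′SL and PBS, with 95% intervals that include 0.

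**Figure D3:**
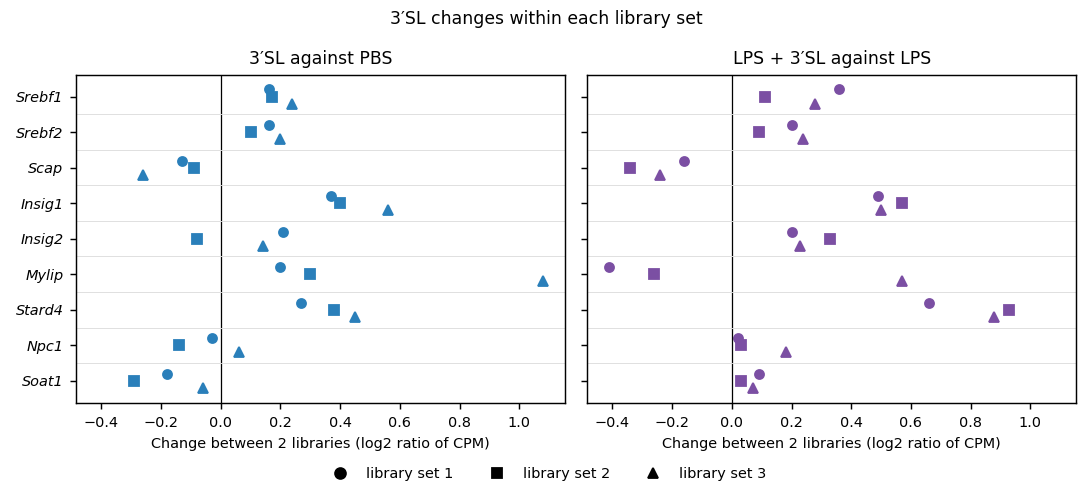
Change of each gene between the 2 libraries of a set that differ in 3′SL, as the log2 ratio of CPM (horizontal axis), without LPS (left) and with LPS (right). Each point is 1 library set. Points of Srebf1, Srebf2, Insig1 and Stard4 lie above 0 in all sets of both panels and those of Scap below 0 in all. The set 3 point of Mylip lies at 1.08 without LPS and 0.57 with it.

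Whether the 3′SL change differed with and without LPS was tested as an interaction. None of the 9 genes passed, nor did any gene by edgeR (0% of 14308, 872 with an unadjusted p under 0.05), and the 44 genes that passed in DESeq2 and the 222 with the block included 0 of the 9. The estimate was 0.45 for Stard4 (95% interval -0.06 to 0.96, edgeR adjusted p = 0.828) and 0.07 for Insig1 (-0.26 to 0.40). For Mylip it was -0.68 with an interval from -1.58 to 0.22. The intervals of the other 6 genes all included 0, and that of Soat1 (-0.19 to 0.70) also included a 1.5-fold difference.

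The other genes of the pathway were described from lists chosen with earlier results known, and their counts are read against the 18.3% of all genes that rose and the 20.2% that fell with LPS. Of 13 genes of SREBP cleavage and of sterol-regulated degradation in the ER, 2 rose and 1 fell with LPS. The risers were Rnf145 (1.82 ± 0.19) and Rnf139 (1.63 ± 0.13), both ER ubiquitin ligases, and Tmem97, an ER protein that binds sterols and NPC1, fell by 1.11 ± 0.25. Of 8 genes tested in the lipoprotein uptake list, 1 rose and 4 fell. Lrp8, an apoE receptor of that list, fell by 2.37 ± 0.50. Its level was higher with 3′SL, by 1.68 in LPS and by 2.02 without LPS. Neither of these 3′SL changes passed over conditions alone (edgeR adjusted p = 0.371 and 0.258). Both passed with the library set as a block (edgeR adjusted p = 0.0475 and 0.0109) and in DESeq2 (adjusted p = 0.0497 and 0.00633). Beside Stard4, Npc1 and Soat1, 15 further genes of sterol transport, esterification and ester hydrolysis were tested, of which 7 rose and 3 fell. Stard3, a sterol tether of late endosomes, rose by 1.94 ± 0.26 and Gramd1a, a sterol transporter from plasma membrane to ER, by 1.73 ± 0.24. In the same list the ester hydrolase gene Nceh1 fell by 1.87 ± 0.19 and Gramd1b by 1.34 ± 0.17. The median was 0.68 for this transport list and -0.49 for the 9 genes.

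Of 18 enzymes of cholesterol synthesis, 0 rose (18.3% of all genes) and 7 fell (20.2%) with LPS, among them Dhcr7 by 2.64 ± 0.28 and Sqle by 1.18 ± 0.16, the enzymes of a last and an early step of the sterol branch. Of 6 LXR receptors and targets, 3 rose and 1 fell, with Nr1h3 (LXRα) at 2.10 ± 0.24, the efflux transporter gene Abca1 at 1.74 ± 0.11 and Rxra, the partner receptor, at -1.89 ± 0.13. With 3′SL no gene of any of these lists passed in the edgeR fit over conditions alone. In LPS + 3′SL against LPS, all 18 synthesis enzymes were higher (median 0.64), and 12 of them passed with the library set as a block (0.685% of all genes rose by this rule) and 8 in DESeq2 (0.328%), compared with 1 of the 9 sterol sensing and transport genes (Stard4) by either. The medians of the other lists in that comparison were 0.24 for the lipoprotein uptake list and -0.03 for the cleavage and degradation list. They were -0.06 for the transport list and -0.04 for the LXR list.

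**Figure D4:**
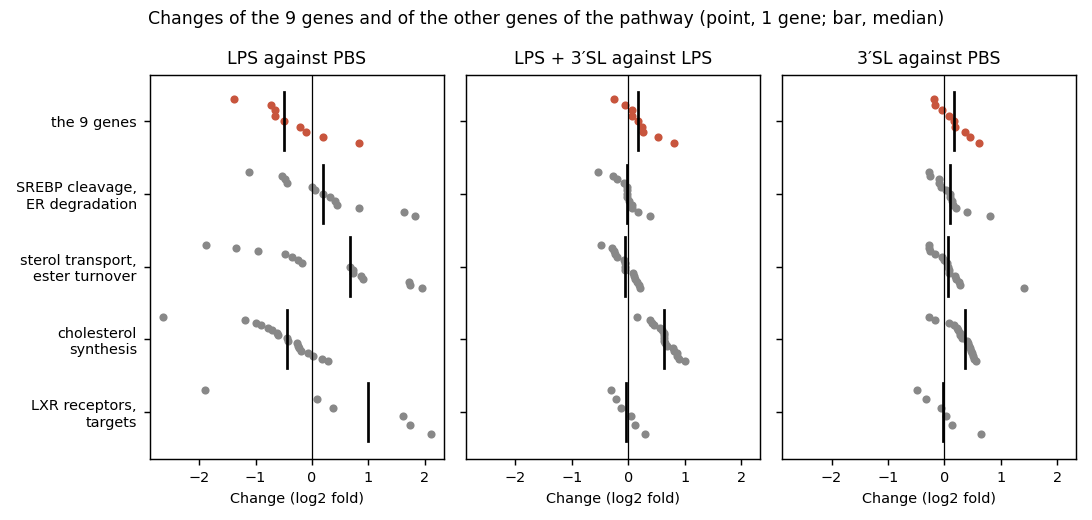
Log2 fold change (horizontal axis, edgeR) of the 9 genes and of the other genes of the pathway, grouped by list, in 3 comparisons. Each point is 1 gene and bars are medians. The lipoprotein uptake list is not drawn. With LPS the lists spread to both sides of 0, and in LPS + 3′SL against LPS the 18 synthesis enzymes all lie above 0, the lowest at 0.16.

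The genes whose levels followed each of the 9 most closely were found by Pearson correlation of log2(CPM + 1) over the 12 libraries, which share condition and library set, so the values are descriptions. Emp3 (0.951) and Gpr107 (0.934) were among those most like Srebf2. Insig1 was followed by Prrc1 (0.980), Lrp8 (0.978) and Sdf2l1 (0.975), and Stard4 by Atp6v0a1 (0.985), Cdk5rap3 (0.985) and Ermp1 (0.981). Npc1 was followed by Snx29 (0.992), Add3 (0.990) and Dvl2 (0.988), Scap by Snap29 (0.992), Agtrap (0.990) and Armc8 (0.990), and Mylip by Homer3 (0.978), Zadh2 (0.974) and Gm33280 (0.964). Values for Soat1 were lower, with Polr2a (0.956), Ttc39aos1 (0.955) and Osbpl11 (0.945), as were those for Srebf1, with Tram1 (0.932), 2900097C17Rik (0.928) and Crtc3 (0.924). Insig2 had Dnajc25 (0.911), Gbf1 (0.873) and Grik5 (0.845).

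Among the 9 genes themselves, Insig1 and Stard4 were correlated at 0.899 over the 12 libraries, Stard4 and Npc1 at 0.887, and Scap and Stard4 at -0.948. After condition means were removed, the value was -0.260 for Insig1 and Stard4, 0.696 for Stard4 and Npc1, and -0.575 for Scap and Stard4, so the first of these was not seen among libraries of the same condition.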

How the data were processed

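Raw whole-number counts of reads per gene were deposited by the authors, 1 file for each of 12 libraries, made from polyA-selected, stranded libraries. The submitters' processing notes name FastQC, Trimmomatic, STAR, HTSeq and DESeq2. Versions, genome build and strand setting are not given in the sources used here. Reads without a gene (6.1 to 8.22% of uniquely aligned reads) or ambiguous between genes (2.56 to 3.14%) were left out. Groups followed the intervention label.

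Gene IDs were matched to GENCODE M21 without version (42548 of 43626). The tests used edgeR 4.0.16 (R 4.3.3): filterByExpr, TMM, a quasi-likelihood fit of 1 mean per condition over all libraries, and Benjamini-Hochberg adjustment over 14308 genes. Standard errors and intervals come from that fit. A gene passed with an adjusted p below 0.05 and a change of 1.5-fold or more. Levels are CPM on TMM-scaled library sizes. Scripts were tested on simulated data. No 2 replicates were duplicates, since their lowest chi-square per gene was 15.6.

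Alternatives were DESeq2 1.42.0, other scalings and filters, the library set as a block, each library or set left out, and no fold minimum. The 9 genes and all lists were chosen with earlier results of these data known. From each list, up to 2 genes with the largest passing change per direction are named, and for each of the 9 the 3 genes most like it. Some genes of these lists are not reported here.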

Additional observations from a re-analysis of the deposited data

How the results depend on the processing

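The count of the 9 genes past both thresholds in LPS against PBS was 4, and 4 to 5 when any 1 library was left out. It was 7 with total counts in place of TMM, with and without the library set block, and 57.3% of all genes then passed, in either direction, without the block. For LPS + 3′SL against LPS the count of 0 stayed 0 without any 1 library. It was 1 with DESeq2 (0.790% of all genes passed, in either direction) and with the block (1.45%). It was also 1 with the block in DESeq2 (1.98%) and with the block without set 3 (2.58%). It was 2 with the block and total counts (1.52%) or the block and no fold minimum (2.43%). For 3′SL against PBS it was 1 only with the block and no fold minimum, where 5.88% of all genes passed. Without any 1 library it was 0 to 0, as for the interaction. Scap in LPS against PBS was not called with total counts (0.17).

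Directions turned as follows, in each case for a value that had not passed. With total counts, Srebf2 in LPS against PBS was -0.46 (-0.47 with the block), Insig2 with 3′SL alone was -0.00, and the Scap interaction was 0.08 (0.09 with the block). Over fits without 1 library each, Mylip in LPS + 3′SL against LPS ranged from -0.23 to 0.13 (0.10 with the block and without set 1), Npc1 with 3′SL alone from -0.13 to 0.05 (0.01 with the block and without set 2), Npc1 in LPS + 3′SL against LPS from -0.01 to 0.13, the Srebf2 interaction from -0.04 to 0.13 (also -0.03 and -0.01) and the Srebf1 interaction from -0.00 to 0.12 (-0.01 with the block and without set 1). The causes were not tested. Total counts moved 32 of 36 mean levels by more than 1 SD and DESeq2 size factors moved 0. The labels carry no replicate numbers to pair libraries by, so the block used the sets found in the data. Each of the 9 genes had at least 332 reads in every library.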
